A study of Mus musculus with 27 samples.

Results

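Csf1r, Ctss, Fcgr2b, Cd52, Nckap1l, Cd68, Tyrobp, Laptm5, Lyz2 and Fcer1g, genes that mark macrophages and other myeloid cells, were followed across the mouse left ventricle under pressure overload. They were taken by name, from a list proposed with earlier results of these data known. All 10 were among the 8987 genes of the messenger RNA table. Each was measured in 11 hearts, as RPKM (mapped reads scaled by transcript length and library depth). In wild-type hearts under load their RNA was 2.05 to 3.1 times that of sham hearts, after 0.5 RPKM was added to every value. The 3.1 was that of Cd52, and Cd52 and Nckap1l are listed only because they reached 3 RPKM in those loaded hearts. Among the 8 other genes the highest was 2.99 (Tyrobp). In loaded hearts with an active PI3K alpha the RNA of the 10 genes did not differ detectably from that in their own sham hearts. That comparison was of 2 hearts against 2, and 0 of the 8987 genes passed its test. A test of the difference between the 2 responses to load was passed by 1 of the 10 genes.

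The animals were adult FVB mice, either wild type (WT) or of the genotype labelled PI3Kalpha mutant, which the protocol text calls caPI3Kalpha: the lipid kinase PI3K alpha kept permanently switched on. The surgical narrowing of the aortic arch known as transverse aortic constriction (TAC) raises the pressure the ventricle pumps against; it was compared with a sham operation, and ventricles were taken 7 days later. Messenger RNA came from 4 WT sham hearts (numbered 6, 7, 13 and 15), 3 WT TAC hearts (1, 17 and 19), 2 caPI3Kalpha sham hearts (5 and 8) and 2 caPI3Kalpha TAC hearts (11 and 211), and the small RNA libraries numbered 4, 5, 3 and 4 in the same order. The labels give no promoter or cell type for the caPI3Kalpha allele, no exact age and no litter. The mRNA library titled WT sham 15 has the number 13 in its source name, which is the number of another WT sham library; the title was used, and if both came from 1 animal the WT sham group holds 3 animals and not 4. The labels number single hearts without stating litter or date, so the p-values below measure the spread between these hearts alone.

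Macrophages live in the healthy heart as resident cells, and monocytes enter it after injury. Their growth and survival depend on CSF1 signalling through the receptor Csf1r. They sense antibody-coated targets through Fc receptors, which signal through small adapter chains that carry an activating motif called ITAM or are held back by receptors with an inhibitory motif called ITIM. They break down what they engulf in lysosomes with proteases and lysozyme. These are bulk samples, so more cells of a type and more RNA per cell cannot be told apart in any result below.

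The start regions of the members are shown here because genes of this lineage are known for compact promoters read by the factor PU.1, which binds a GGAA core, and by C/EBP factors. RefSeq promoters on build GRCm38.p6 were matched for 6 of the 10 genes. Members on a chromosome held out of the search were not looked for, so a gene not shown may still have a RefSeq promoter. Each line gives the 60 bases that end just before the annotated start, 5′ to 3′ on the gene's own strand. Capitals mark GGAA, or TTCC where the core lies on the opposite strand, and in Cd68 a TTGCNNAA match. The windows lie at chr3:95526726-95526785 (plus strand) for Ctss, chr1:170976072-170976131 (minus) for Fcgr2b, chr11:69666171-69666230 (minus) for Cd68, chr4:130913256-130913315 (plus) for Laptm5, chr10:117282273-117282332 (minus) for Lyz2 and chr1:171234350-171234409 (minus) for Fcer1g.
Fcgr2b: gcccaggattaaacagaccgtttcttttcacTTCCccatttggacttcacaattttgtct
Fcer1g: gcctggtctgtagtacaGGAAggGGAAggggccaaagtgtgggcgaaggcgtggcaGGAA
Ctss: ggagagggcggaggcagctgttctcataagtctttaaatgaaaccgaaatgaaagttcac
Cd68: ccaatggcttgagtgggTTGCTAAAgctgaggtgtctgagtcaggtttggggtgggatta
Laptm5: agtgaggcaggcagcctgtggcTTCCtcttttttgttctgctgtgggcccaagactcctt
Lyz2: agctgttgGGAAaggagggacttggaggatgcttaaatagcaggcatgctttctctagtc

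On either strand, GGAA stood in the last 60 bases of 4 of these 6 promoters, 3 times in Fcer1g, and in 49% of all 32851 RefSeq promoters cut to the same 60 bases. The longer PU.1-like word GAGGAAG was searched on both strands of the 250 bases before the start. It contains the GGAA core, stood in Laptm5 alone of the 6, from 39 bases before the start on the opposite strand, and occurred in 10.6% of all promoters. The C/EBP-like word TTGCNNAA stood in Cd68 alone, from 43 bases before the start on the same strand, against 9.56% of all promoters. TATAAA occurred in 12.4% of all promoters and stood in 2 of the 6, Ctss on the opposite strand and Laptm5 on its own. It lay from 233 bases before the start in Ctss and from 218 in Laptm5, outside the 60 bases printed. These are matches of letters, and the series holds no measurement of factor binding.

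Some facts about the libraries bear on the values. Pik3ca, which encodes the catalytic chain of PI3K alpha, checked the genotype labels: it read 5.3 to 8.9 RPKM in the 7 WT hearts and 101.3 to 195.0 RPKM in the 4 caPI3Kalpha hearts, with no overlap. The authors listed only genes that reached 3 RPKM in some library, and Cd52 and Nckap1l reached it in WT TAC alone, so these 2 had to be higher there to be listed at all. The first principal component over all genes, 52% of the variance, divided the hearts into 2 sets that the labels do not mention: WT sham 6, WT TAC 1 and all 4 caPI3Kalpha hearts in the first set, and the other 5 WT hearts in the second. Genotype was therefore compared within the first set only through 1 WT heart of each operation. Per library the table's RPKM add up to 202916.4 to 212396.3, and the number of mRNA reads is unknown.

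**Figure D1:**
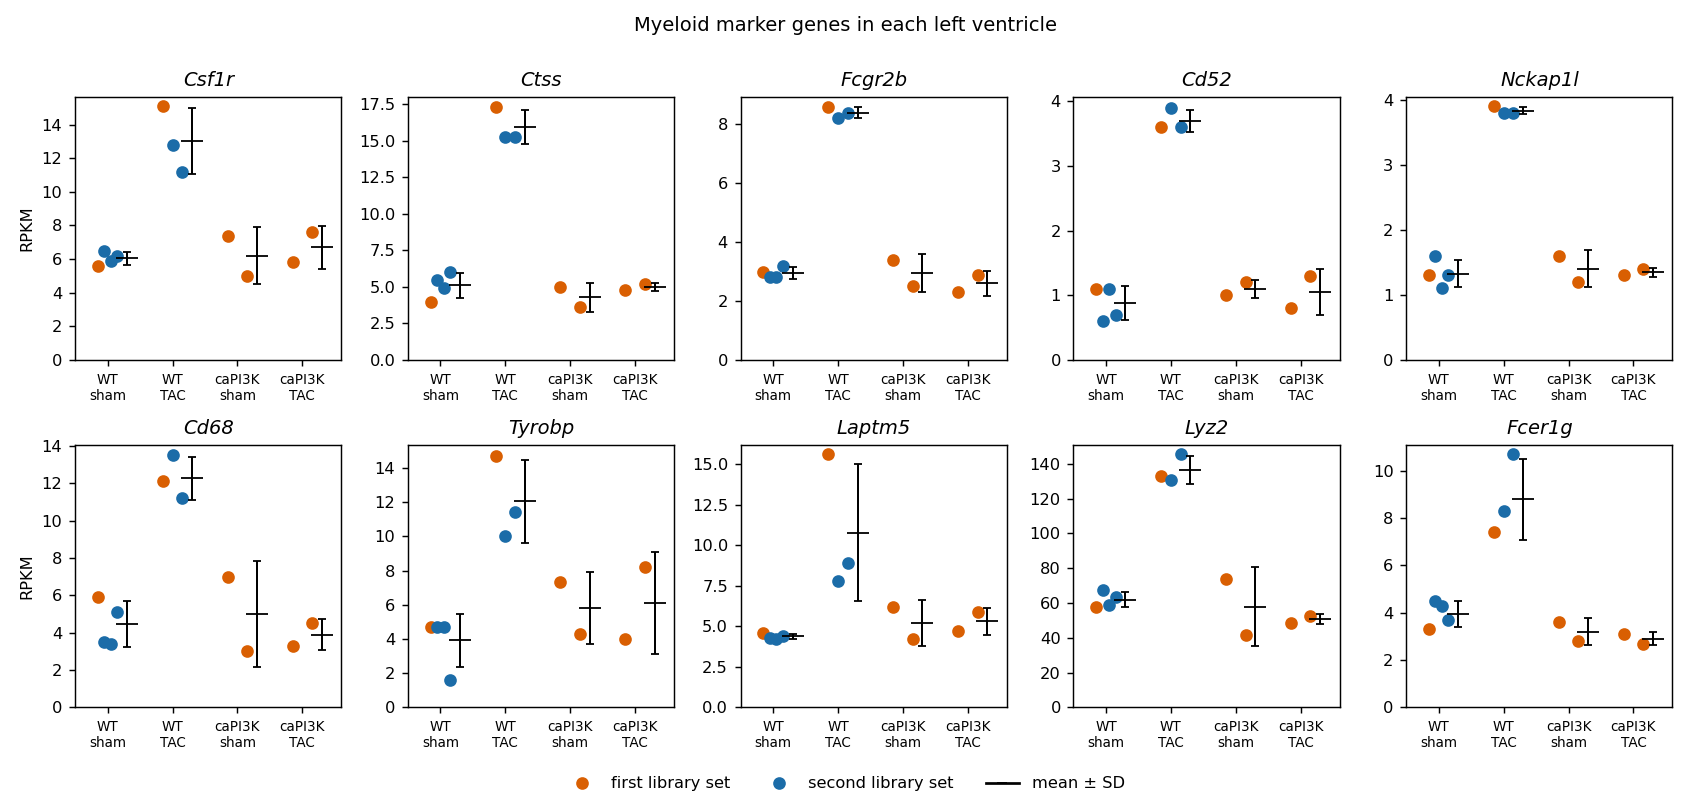
RPKM of each of the 10 genes (vertical axes start at 0 and differ between panels) in each of 11 hearts by group, coloured by library set; black marks give the group mean ± SD over 4, 3, 2 and 2 hearts. In every panel the 3 WT TAC hearts lie above the 8 others.

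In WT hearts all 10 genes were higher after TAC, and the 3 loaded hearts lay above each of the 8 other hearts for every gene. Log2 changes are differences of log2(RPKM + 0.5), tested with limma across all genes at a Benjamini-Hochberg adjusted p under 0.05; the added 0.5 understates the change of low genes. The changes of the 10 genes ran from 1.04 to 1.63 with a median of 1.31, beside a median of 0.17 over all genes. Of all genes tested 13.6% were called higher in this comparison, and 12.4% had all 3 WT TAC values above all 8 other values. Of the 8452 genes that reached 3 RPKM outside WT TAC, 12% were called higher, as were all 8 members among them, with a median of 1.26.

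Csf1r encodes the receptor for CSF1 and marks cells of the monocyte and macrophage line. It read 5.6, 6.5, 5.9 and 6.2 RPKM in the 4 WT sham hearts and 15.1, 12.8 and 11.2 RPKM in WT TAC hearts 1, 17 and 19. The caPI3Kalpha hearts gave 7.4 and 5.0 RPKM after sham and 5.8 and 7.6 RPKM after TAC. The lowest loaded WT heart stood clear of the highest of all the others, while the caPI3Kalpha groups overlapped each other and the WT sham range. With TAC it rose by 1.04 (SE 0.16, adjusted p = 0.00177), from 6.05 ± 0.387 RPKM (SD, n = 4) to 13.0 ± 1.96 RPKM (SD, n = 3). It was the smallest of the 10 changes on this scale. Csf1, the growth factor that binds this receptor, was the 1 gene of 6 CSF ligands and other CSF receptors that the table lists. Its change did not pass the threshold (0.42, SE 0.16, adjusted p = 0.089).

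The adapters and the Fc receptor came next. Tyrobp, also called DAP12, is an ITAM adapter for several activating myeloid receptors. Its WT sham values were 4.7, 4.7, 4.7 and 1.6 RPKM and its WT TAC values 14.7, 10.0 and 11.4 RPKM. The caPI3Kalpha values were 7.3 and 4.3 RPKM after sham and 4.0 and 8.2 RPKM after TAC, so each caPI3Kalpha pair was spread widely. Its rise of 1.58 in WT had the largest error of the 10 (SE 0.35, adjusted p = 0.0119). WT sham 15 stood below the other sham hearts, and the change was still called when it was left out.

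Fcer1g, the shared gamma chain of Fc receptors, read 3.3, 4.5, 4.3 and 3.7 RPKM in WT sham hearts and 7.4, 8.3 and 10.7 RPKM in WT TAC hearts. Both caPI3Kalpha TAC hearts, at 3.1 and 2.7 RPKM, lay below the whole WT sham range, as in 16.1% of all genes, and the caPI3Kalpha sham hearts read 3.6 and 2.8 RPKM. In WT it rose by 1.06 with TAC (SE 0.16, adjusted p = 0.00172).

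Fcgr2b, the inhibitory Fc receptor with an ITIM, had one of the tightest patterns. It read 3.0, 2.8, 2.8 and 3.2 RPKM in WT sham hearts and 8.6, 8.2 and 8.4 RPKM in WT TAC hearts. The caPI3Kalpha hearts read 3.4 and 2.5 RPKM after sham and 2.3 and 2.9 RPKM after TAC. The 3 loaded WT hearts were within 0.4 RPKM of one another, and the nearest other heart was far below them. The WT change was 1.37 (SE 0.13, adjusted p = 0.000123), which is 2.58-fold on this scale. Fcgr2b and its activating neighbour Fcgr3 are alike in sequence, and how reads shared by both were divided is not given in the sources used here; Fcgr3 changed by 1.24 (SE 0.21, adjusted p = 0.00321).

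Among the lysosomal genes, Ctss encodes cathepsin S, a protease of antigen-presenting cells. It read 4.0, 5.5, 4.9 and 6.0 RPKM in WT sham, 17.3, 15.3 and 15.3 RPKM in WT TAC, 5.0 and 3.6 RPKM in caPI3Kalpha sham and 4.8 and 5.2 RPKM in caPI3Kalpha TAC hearts. From a WT sham mean of 5.1 ± 0.86 RPKM (SD, n = 4) the change was 1.57 (SE 0.15, adjusted p = 0.000128). Of the 8 members that reached 3 RPKM outside WT TAC, Ctss and Tyrobp had the largest changes.

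Cd68, a heavily glycosylated protein of late endosomes and lysosomes used as a macrophage stain, varied more among sham hearts. Its values were 5.9, 3.5, 3.4 and 5.1 RPKM in WT sham and 12.1, 13.5 and 11.2 RPKM in WT TAC. The 2 caPI3Kalpha sham hearts differed by over 2-fold, at 7.0 and 3.0 RPKM, and the 2 caPI3Kalpha TAC hearts read 3.3 and 4.5 RPKM. The WT change was 1.39 (SE 0.26, adjusted p = 0.00525).

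Laptm5, a lysosomal membrane protein of blood cells, had the tightest sham group and the widest loaded one. WT sham hearts gave 4.6, 4.3, 4.2 and 4.4 RPKM, while WT TAC hearts gave 15.6, 7.8 and 8.9 RPKM, with heart 1 far above hearts 17 and 19. The caPI3Kalpha hearts read 6.2 and 4.2 RPKM after sham and 4.7 and 5.9 RPKM after TAC, with both TAC values above all WT sham hearts, an order that 16.9% of all genes had. The WT change was 1.15 (SE 0.21, adjusted p = 0.00525), and 0.86 without WT TAC 1.

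Lyz2, the lysozyme of macrophages and neutrophils, was the most abundant member per length. It read 58.0, 67.5, 59.1 and 63.5 RPKM in WT sham and 133.1, 130.8 and 145.5 RPKM in WT TAC. In caPI3Kalpha hearts it read 74.0 and 41.8 RPKM after sham and 48.8 and 52.8 RPKM after TAC. Both loaded caPI3Kalpha hearts thus fell below the WT sham range, as in 16.1% of all genes. Lyz2 rose by 1.13 in WT (SE 0.16, adjusted p = 0.00149). Its near-copy Lyz1 read 5.0 to 7.5 RPKM in WT sham and 12.7 to 18.8 RPKM in WT TAC, a change of 1.26 (SE 0.22, adjusted p = 0.00417), and the division of shared reads between them is uncertain.

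The last pair are general leukocyte genes. Nckap1l, also called Hem1, is the blood-cell subunit of the WAVE complex that drives actin assembly, and read 1.3, 1.6, 1.1 and 1.3 RPKM in WT sham and 3.9, 3.8 and 3.8 RPKM in WT TAC. Its caPI3Kalpha values were 1.6 and 1.2 RPKM after sham and 1.3 and 1.4 RPKM after TAC. The change was 1.25 (SE 0.16, adjusted p = 0.000776). Cd52 encodes a small surface glycoprotein of lymphocytes and monocytes and was the lowest member, at 1.1, 0.6, 1.1 and 0.7 RPKM in WT sham and 3.6, 3.9 and 3.6 RPKM in WT TAC. Its caPI3Kalpha values were 1.0 and 1.2 RPKM after sham and 0.8 and 1.3 RPKM after TAC. Its change was 1.63 (SE 0.21, adjusted p = 0.000776), and 2.00 with 0.1 RPKM added in place of 0.5. For both genes the listing limit makes a high WT TAC value a condition of being in the table.

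**Figure D2:**
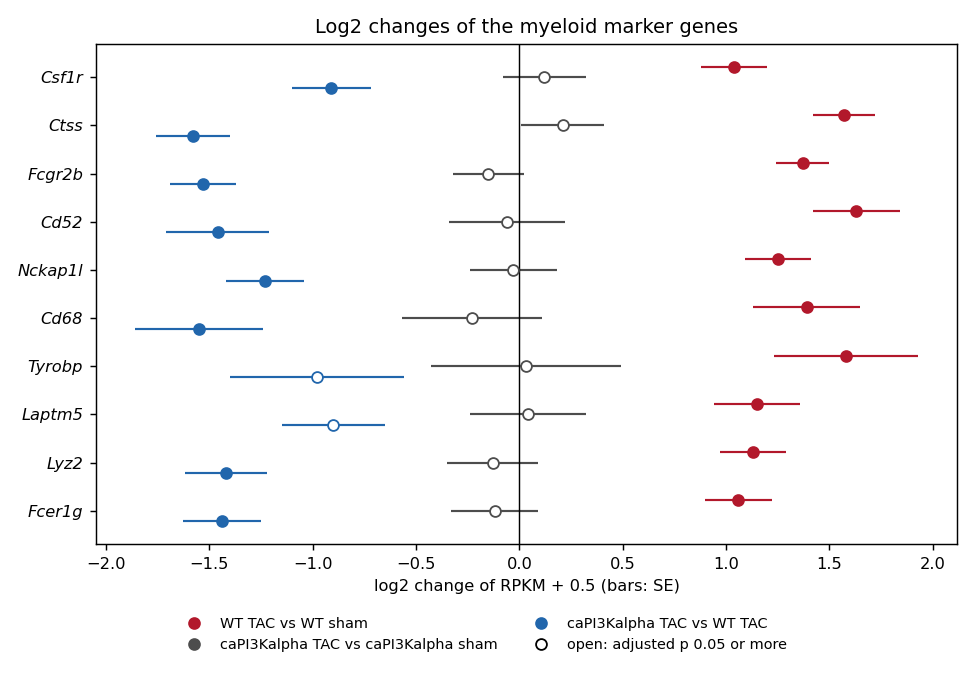
Log2 change (horizontal axis, of RPKM + 0.5) with its SE for each of the 10 genes in WT TAC against WT sham (red), caPI3Kalpha TAC against caPI3Kalpha sham (grey) and caPI3Kalpha TAC against WT TAC (blue); open circles have an adjusted p of 0.05 or more. The red points lie between 1.04 and 1.63, the grey points between -0.23 and 0.21 and the blue points between -1.58 and -0.90.

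Without load, the caPI3Kalpha hearts did not differ detectably from WT in any member. Changes against WT sham ran from -0.27 (Fcer1g) to 0.56 (Tyrobp) with a median of 0.03, and limma called 0 of the 10, with 0 also at an unadjusted p under 0.05. Of all genes 0.0111% were called, which is Pik3ca alone. WT sham 6 was the 1 sham heart of the WT group in the first library set. Without it 20.3% of all genes were called and still 0 of the 10. Genotype and library set could not be told apart in that fit. With all hearts, the change for Csf1r was 0.01 with an approximate 95% interval of -0.34 to 0.36. For Cd68 it was 0.08 with -0.50 to 0.65. Heart 5 was above heart 8 in 9 of the 10 genes, all but Cd52, against 41.4% of all genes. The summed RPKM of the 10 genes was 116.5 in heart 5 and 69.6 in heart 8, and lay between 91.5 and 101.5 in WT sham.

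Under load, the caPI3Kalpha hearts showed no called change against their own sham group. The 10 changes ran from -0.23 (Cd68) to 0.21 (Ctss) with a median of -0.05, beside 0.01 over all genes. Limma called 0 members and 0% of all genes, and 0 members and 454 genes had an unadjusted p under 0.05. The approximate 95% interval was -0.48 to 0.19 for Fcgr2b and -0.17 to 0.60 for Ctss, below the WT intervals of 1.11 to 1.62 and 1.27 to 1.86. For Tyrobp it ran from -0.86 to 0.93 and overlapped that of the WT change, 0.90 to 2.26. TAC heart 211 was above TAC heart 11 in 9 of the 10 genes, all but Fcer1g, against 50% of all genes. For 0 members did both TAC hearts lie on 1 side of both sham hearts, while 22.4% of all genes had both above and 20% both below.

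Set directly against loaded WT hearts, the loaded caPI3Kalpha hearts were lower in 8 of the 10 genes, against 5.78% of all genes called lower. Without Cd52 and Nckap1l, listed only through their high WT TAC values, the count was 6 of 8, against 5.09% of the genes that reached 3 RPKM outside WT TAC. The changes ran from -1.58 to -0.90 with a median of -1.43, beside -0.18 over all genes. Ctss changed by -1.58 (SE 0.18, adjusted p = 0.00175), Fcgr2b by -1.53 (SE 0.16, adjusted p = 0.00138) and Fcer1g by -1.44 (SE 0.19, adjusted p = 0.00397). Lyz2 changed by -1.42 (adjusted p = 0.00563), Nckap1l by -1.23 (adjusted p = 0.00943) and Cd52 by -1.46 (adjusted p = 0.0162). Cd68 (-1.55, adjusted p = 0.0223) and Csf1r (-0.91, adjusted p = 0.0246) were nearer the threshold. Tyrobp (-0.98, adjusted p = 0.131) and Laptm5 (-0.90, adjusted p = 0.0568) did not pass it. Laptm5 did with a term for library set (-1.21, adjusted p = 0.0114), without WT sham 6 (-0.90, adjusted p = 0.0336) and without WT TAC 1 (-0.61, adjusted p = 0.0281). The sets were drawn from these same values, so adjusted p-values with that term may be too small. Without WT TAC 1 the loaded WT hearts were all of the second set and the loaded caPI3Kalpha hearts of the first. Genotype and library set could not be told apart in that fit. In all 10 genes every loaded WT heart was above both loaded caPI3Kalpha hearts, as in 36.2% of all genes. The count was 5 without WT TAC 17, 3 without caPI3Kalpha TAC 11 and 2 without caPI3Kalpha TAC 211, where 0.623%, 0.256% and 0.278% of all genes were called in either direction, against 6.52% with all hearts. It was 9 without WT sham 6 or WT TAC 1, where 21.3% and 36.4% of all genes were called. Leaving out either caPI3Kalpha TAC heart leaves a single loaded caPI3Kalpha heart whose spread is assumed to be that of the other groups. Csf1r was not called after quantile normalization (-0.77, adjusted p = 0.0612) centring on library medians (-0.75, adjusted p = 0.0608) or in a fit of the 2 loaded groups alone (-0.91, adjusted p = 0.0835).

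The difference between the 2 responses to load, the interaction of genotype and operation, was called for Fcgr2b alone among the 10, at -1.52 (SE 0.21, adjusted p = 0.0156), against 0.312% of all genes called lower. The other interaction estimates ran from -1.69 (Cd52) to -0.92 (Csf1r), beside a median of -0.16 over all genes. All 10 members, and 926 genes in all, had an unadjusted p under 0.05. The adjusted p was 0.0591 for Ctss, 0.0898 for Cd52 and Nckap1l and 0.353 for Tyrobp. Fcgr2b lost its call when WT TAC 17 (adjusted p = 0.0642), caPI3Kalpha sham 5 (0.109), caPI3Kalpha TAC 11 (0.146) or caPI3Kalpha TAC 211 (0.0682) was left out. With a term for library set, 9 of the 10 were called lower, all but Tyrobp (adjusted p = 0.105), and 6.75% of all genes were called in either direction. The sets were drawn from these same values, so adjusted p-values with that term may be too small. The interaction, the TAC comparisons above and the comparison of the 2 loaded groups share the same hearts and are not separate evidence.

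**Figure D3:**
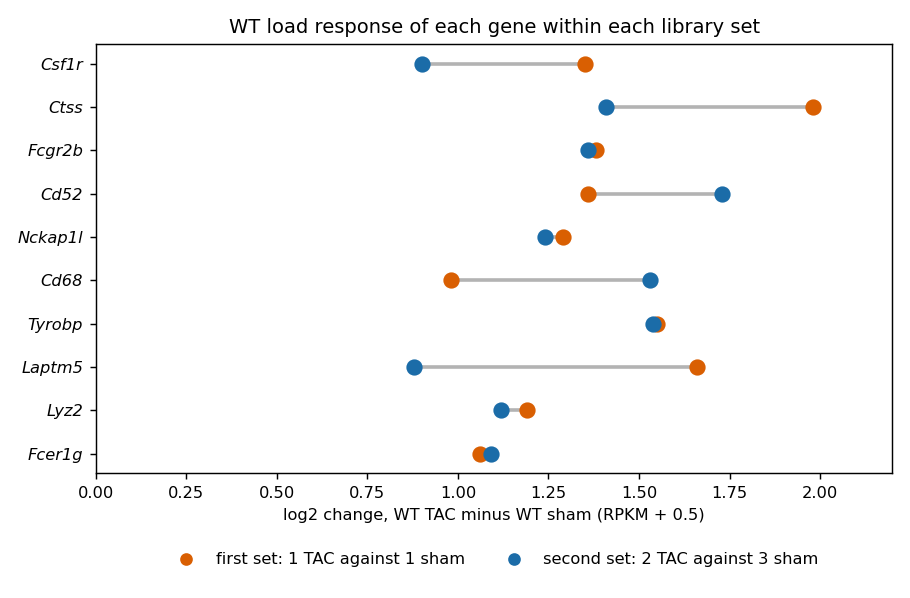
Log2 change of each gene in WT TAC against WT sham (horizontal axis, RPKM + 0.5) within the first library set, 1 heart against 1, and within the second, 2 hearts against 3. All 20 points lie between 0.88 and 1.98.

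The WT response was of the same direction within both library sets. In the second set, with 2 TAC and 3 sham hearts, limma called all 10 genes higher, with 31.6% of all genes called in either direction. In the first set, with 1 heart of each operation, the changes ran from 0.98 for Cd68 to 1.98 for Ctss, and 0 of the 10 were called, with 0.49% of all genes called. That fit takes its spread from the caPI3Kalpha pairs. Fcgr2b (1.38 and 1.36), Tyrobp (1.55 and 1.54), Nckap1l (1.29 and 1.24) and Fcer1g (1.06 and 1.09) had nearly the same change in the first and second set. Laptm5 (1.66 and 0.88), Ctss (1.98 and 1.41) and Csf1r (1.35 and 0.90) were larger in the first set, while Cd68 (0.98 and 1.53) and Cd52 (1.36 and 1.73) were larger in the second. No difference between the sets was tested. Within the first set the loaded caPI3Kalpha hearts gave changes against WT TAC 1 of -1.13 for Csf1r and -1.70 for Ctss, with 0 of the 10 and 0.0111% of all genes called.

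The 10 genes moved together across hearts. The mean of their log2 values was 2.33, 2.34, 2.29 and 2.24 in WT sham, 3.71, 3.55 and 3.59 in WT TAC, 2.59 and 2.10 in caPI3Kalpha sham and 2.17 and 2.46 in caPI3Kalpha TAC. Over the 45 pairs of members, Pearson's r across the 11 libraries ran from 0.633 to 0.978 with a median of 0.89. The loaded WT hearts stand apart from the rest in every member, and these r describe that split. After the group means were taken out, r ran from -0.552 to 0.857 with a median of 0.395. The highest within-group value was between Fcgr2b and Cd68 and the lowest between Ctss and Cd52. These values are descriptions, and the genes share their libraries.

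The 10 genes outside the members whose RPKM followed the members' mean profile most closely over the 11 libraries had r of 0.965 to 0.981. They were Serpine2 and Clic1 (both 0.981), Lox (0.977), Myof (0.975), Asap1 (0.974), Lcp1 (0.970), P4hb (0.967), Tmbim1 (0.966), Igf1r (0.965) and Lamc1 (0.965). Lox, Myof and Igf1r reached 3 RPKM in WT TAC alone, so, like Cd52 and Nckap1l, they had to be high there to be listed. These r again describe the split of the loaded WT hearts from the rest. Of these Lcp1, the actin bundler L-plastin, stands on the leukocyte list below, at 4.5 to 6.3 RPKM in WT sham and 13.9 to 17.0 RPKM in WT TAC. Serpine2, a secreted protease inhibitor, read 11.4 to 12.1 RPKM in WT sham and 30.4 to 38.4 RPKM in WT TAC. Lox, the collagen cross-linking enzyme, and Lamc1, a laminin chain, are genes of the extracellular matrix. The other 9 of these 10 genes stood on none of the lists used here, as did most of the 8987 genes tested.

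**Figure D4:**
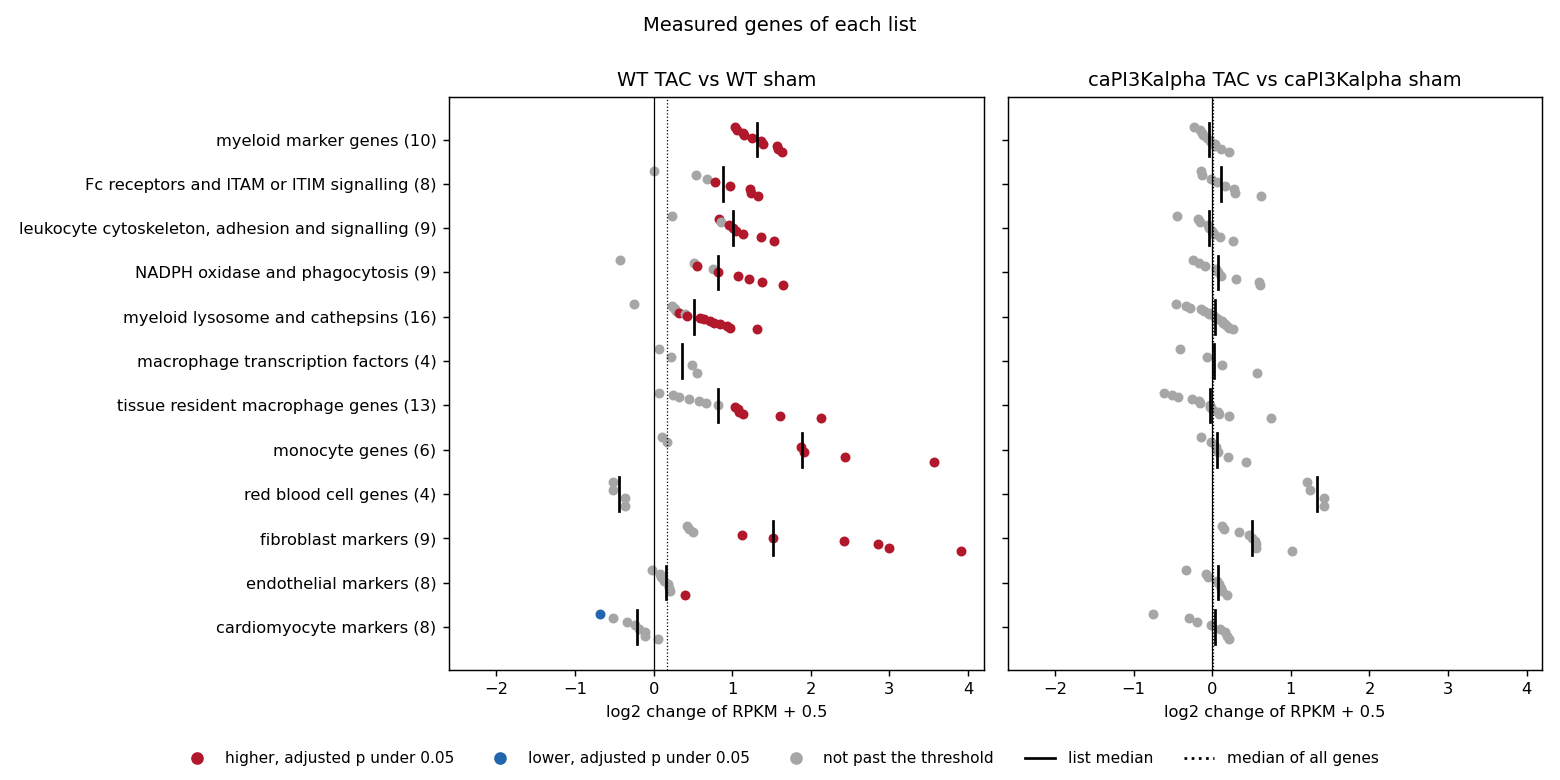
Log2 change (horizontal axes, RPKM + 0.5) of every measured gene of each list with 4 or more measured genes (number in brackets) in WT TAC against WT sham and in caPI3Kalpha TAC against caPI3Kalpha sham; colours mark calls, solid bars the list medians and dotted lines the median of all genes. On the left, red points make up 7 of 9 in the leukocyte row, 6 of 13 in the resident macrophage row, 6 of 9 in the fibroblast row and 0 of 4 in the transcription factor row, and no gene is called on the right.

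Other genes of the same systems were read from lists. Because of the listing limit, only the more abundant genes of each list have values, and several are listed through WT TAC alone. The counts below stand beside 13.6% of all genes called higher in WT TAC, or 12% of those that reached 3 RPKM outside it. Of 18 Fc receptor and ITAM or ITIM signalling genes 8 were listed and 5 were higher in WT TAC, among them Sirpa, the inhibitory receptor for CD47 (0.97, SE 0.10, adjusted p = 0.000186), and Lilrb4, another ITIM receptor (1.33, SE 0.22, adjusted p = 0.00332). Without the 3 listed through WT TAC alone, Trem2, Inpp5d and Plcg2, the count was 3 of 5. Of 25 genes of leukocyte cytoskeleton, adhesion and signalling 9 were listed and 7 were higher, or 5 of 6 without Ptprc, Cd53 and Cyth4. Lcp1 led them with 1.54 (SE 0.16, adjusted p = 0.000229).

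Of 17 genes of the NADPH oxidase and phagocytosis 9 were listed and 6 were higher, or 4 of 7 without Cybb and Msr1. Mpeg1, the pore-forming macrophage protein perforin-2, changed by 1.65 (SE 0.20, adjusted p = 0.000613). All 16 lysosomal and cathepsin genes were listed and 10 were higher, with a median change of 0.51, which is under the median of 1.31 of the 10 myeloid genes. These enzymes are present in every cell type of the heart. Ctsc, cathepsin C, changed by 0.94 (SE 0.15, adjusted p = 0.00245) and Lgmn, the lysosomal protease legumain, by 0.64 (SE 0.10, adjusted p = 0.00208). Of 10 macrophage transcription factors 4 were listed and 0 passed the threshold. Maf was nearest to it (0.55, SE 0.18, adjusted p = 0.0553).

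Genes of resident macrophages and of monocytes were both represented. Of 18 resident macrophage genes 13 were listed and 6 were higher in WT TAC, or 4 of 10 without Emr1, Cx3cr1 and Ms4a7. Emr1, the older symbol of Adgre1 and the gene of the F4/80 antigen, read 1.1 to 2.1 RPKM in WT sham and 3.8 to 7.3 RPKM in WT TAC (1.61, SE 0.26, adjusted p = 0.00258). Mrc1, the mannose receptor, changed by 1.04 (SE 0.22, adjusted p = 0.0092) and C1qb, a complement chain made by macrophages, by 1.14 (SE 0.20, adjusted p = 0.00383). Of 15 monocyte genes 6 were listed and 4 were higher, Vcan, Ccl2, Fn1 and Spp1, or 2 of 4 without Spp1 and Ccl2. These 4 are a matrix proteoglycan, a monocyte chemokine, fibronectin and osteopontin, and fibroblasts can make all of them. Vcan changed by 1.91 (SE 0.14, adjusted p = 2.83e-05).

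In caPI3Kalpha TAC against caPI3Kalpha sham, 0 genes of any of these lists were called. Against WT TAC the loaded caPI3Kalpha hearts were lower in 3 of the 8 Fc receptor genes, 5 of the 9 leukocyte genes, 3 of the 9 oxidase and phagocytosis genes and 7 of the 16 lysosomal genes. They were also lower in 5 of the 13 resident macrophage genes, the 4 monocyte genes named above and Maf. Without the genes listed through WT TAC alone, the counts were 3 of 5 Fc receptor, 2 of 6 leukocyte, 1 of 7 oxidase and phagocytosis, 3 of 10 resident macrophage and 2 of 4 monocyte genes, against 5.09% of all genes that reached 3 RPKM outside WT TAC. Plcg2, an enzyme downstream of ITAM receptors, read 2.5 ± 0.529 RPKM (SD, n = 3) in WT TAC and 2.8 ± 0.141 RPKM (SD, n = 2) in caPI3Kalpha TAC, and the difference did not pass the threshold (0.15, SE 0.20, adjusted p = 0.596).

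Markers of other cells stood beside these results as follows. The fibroblast list summed to 317.9 to 406.7 RPKM in WT sham, 945.0 to 1084.0 RPKM in WT TAC, 302.7 to 345.1 RPKM in caPI3Kalpha sham and 423.7 to 454.7 RPKM in caPI3Kalpha TAC. Of its 9 genes 6 were higher in WT TAC than in WT sham and 4 were lower in caPI3Kalpha TAC than in WT TAC. Within caPI3Kalpha hearts its sums after TAC lay above those after sham, with a median change of 0.50 and 0 genes called, while those of the myeloid genes overlapped. Postn, the matrix protein periostin, read 8.4 to 12.1 RPKM in WT sham and 142.9 to 200.9 RPKM in WT TAC. The part of such cells in the myeloid values was not tested. The 10 myeloid genes summed to 214.4 to 231.4 RPKM in WT TAC, 69.6 to 116.5 RPKM in caPI3Kalpha sham and 78.9 to 92.5 RPKM in caPI3Kalpha TAC. Of 8 endothelial genes 1, Pecam1, was higher in WT TAC (0.40, SE 0.10, adjusted p = 0.0175), a share of 12.5% that is near the 13.6% of all genes, and the list summed to 200.5 to 210.0 RPKM in WT sham and 225.8 to 238.7 RPKM in WT TAC.

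As a check of the labelled tissue, all 8 cardiomyocyte markers were listed, and their sum ran from 23254.8 to 24702.3 RPKM in WT sham and from 19239.1 to 20595.8 RPKM in WT TAC. Myh6, the alpha myosin heavy chain, was the 1 called, with a change of -0.68 (SE 0.13, adjusted p = 0.00574), where 256 of the 8987 genes were called lower. The sum ran from 22281.3 to 24325.4 RPKM in caPI3Kalpha sham and from 23913.5 to 24329.5 RPKM in caPI3Kalpha TAC. In caPI3Kalpha TAC against WT TAC 1 of the 8 was called higher and 1 lower, beside 67 and 519 of all genes. Haemoglobin genes, which follow blood left in the tissue, summed to 15.8 to 216.9 RPKM in WT sham, 19.4 to 200.5 RPKM in WT TAC, 12.1 to 256.5 RPKM in caPI3Kalpha sham and 30.0 to 761.4 RPKM in caPI3Kalpha TAC, with 0 of 4 called. Their part in the myeloid values was not tested. The listing limit left 0 of 13 T and NK cell, 0 of 8 B cell and 0 of 6 mast cell markers, 1 of 8 neutrophil markers (Lcn2, 1.16, SE 0.38, adjusted p = 0.0571) and 1 of 8 dendritic cell markers (Zbtb46, 0.28, SE 0.14, adjusted p = 0.206). A gene that never reached 3 RPKM is not in the table, so no level is known for the others.

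The small RNA libraries gave a second readout, from 16 hearts with 3114229 to 7676588 counted reads; 11 of these hearts also had an mRNA library. miR-142 is a leukocyte miRNA and miR-223 a myeloid one. The 2 arms of miR-142 are shown because they come from 1 hairpin and carry different seeds. Capitals mark the seed, bases 2 to 8, which pairs with targets; RefSeq names them miR-142a and places them at chr11:87756903-87756925 (3p) and chr11:87756867-87756887 (5p) on build GRCm38.p6, plus strand.
miR-142-3p: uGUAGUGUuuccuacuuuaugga
miR-142-5p: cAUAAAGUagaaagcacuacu

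**Figure D5:**
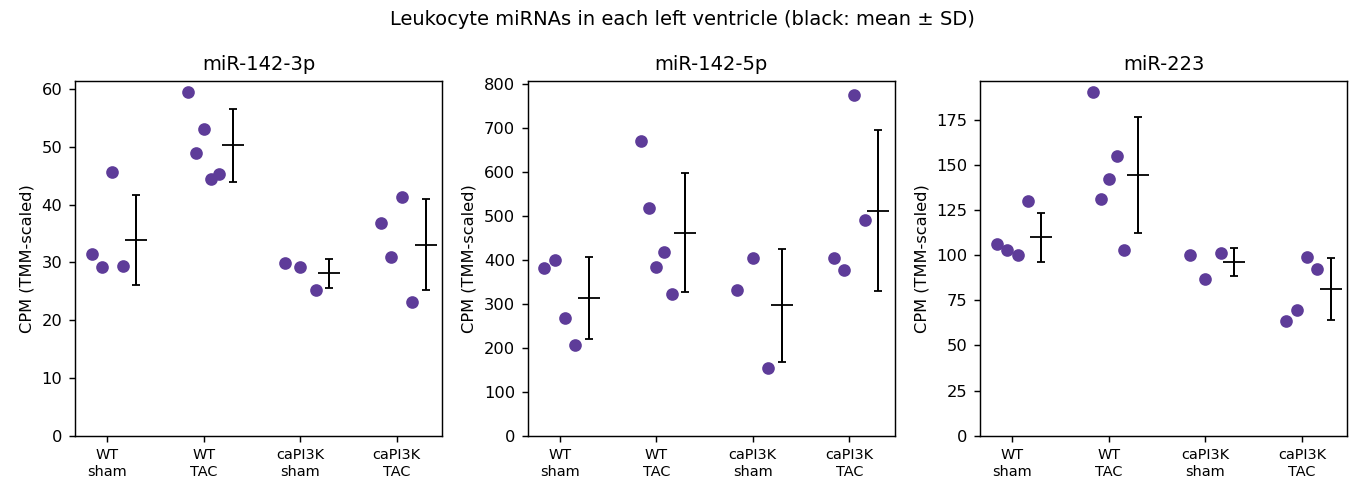
CPM (reads relative to library size, scaled by TMM factors) of miR-142-3p, miR-142-5p and miR-223 in each of 16 hearts (vertical axes start at 0); black marks give the mean ± SD over 4, 5, 3 and 4 hearts. For miR-142-3p, 1 WT sham heart at 45.6 lies within the WT TAC range of 44.4 to 59.6.

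miR-142-3p had 31.4, 29.2, 45.6 and 29.4 CPM in the 4 WT sham hearts and 59.6, 48.9, 53.1, 44.4 and 45.3 CPM in the 5 WT TAC hearts. The groups overlapped through WT sham 13 alone. The change was 0.57 (approximate SE 0.18, adjusted p = 0.0379, edgeR quasi-likelihood), and 20.2% of the 262 miRNAs tested were called in either direction. It read 29.9, 29.3 and 25.3 CPM in caPI3Kalpha sham and 36.9, 30.9, 41.4 and 23.2 CPM in caPI3Kalpha TAC, where it was lower than in WT TAC (-0.60, approximate SE 0.18, adjusted p = 0.0363), with 13% of miRNAs called in either direction. Both calls were close to the threshold: leaving out single hearts gave changes of 0.47 to 0.73 and of -0.72 to -0.45, and the calls were lost in 10 of 16 such fits each. The first was lost without WT sham 6, 7 or 15, any 1 of the 5 WT TAC hearts, or caPI3Kalpha TAC 8 or 9. The second was lost without WT sham 6 or 7, any 1 of the 5 WT TAC hearts, or caPI3Kalpha TAC 8, 9 or 211.

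miR-223 ran from 100 to 130 CPM (median 105) in WT sham and from 103 to 190 CPM (median 142) in WT TAC, and the change was not called (0.39, approximate SE 0.18, adjusted p = 0.144). It was called without TMM factors (0.71, adjusted p = 0.00577). In caPI3Kalpha TAC hearts it read 63.5, 69.5, 99.1 and 92.5 CPM, all below each WT TAC heart, a change of -0.83 (approximate SE 0.18, adjusted p = 0.00959). The highest of these, 99.1 CPM, stood near the lowest WT TAC value of 103 CPM. How many miRNAs had this order was not counted. The table name of miR-223 carries no arm, so no sequence is given. miR-142-5p read 462 ± 136 CPM (SD, n = 5) in WT TAC and 512 ± 183 CPM (SD, n = 4) in caPI3Kalpha TAC, a difference of 0.15 (approximate SE 0.30, adjusted p = 0.799). Its change in WT TAC against WT sham was 0.56 (approximate SE 0.31, adjusted p = 0.232), close to the 0.57 of its partner arm but with a larger error. In caPI3Kalpha TAC against caPI3Kalpha sham it changed by 0.78 (approximate SE 0.35, adjusted p = 0.183), and it was called there with a term for a space in the column name (0.96, adjusted p = 0.00154). No test compared the arms. Among macrophage-linked miRNAs, neither miR-511-3p, which lies within the mannose receptor gene (0.51, approximate SE 0.29, adjusted p = 0.237), nor miR-155 (-0.28, approximate SE 0.14, adjusted p = 0.186) was called in WT TAC against WT sham. For the interaction, none of the 5 miRNAs was called by edgeR; 2 of them, miR-223 and miR-511-3p, had an unadjusted p under 0.05.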

How the data were processed

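The mRNA values are RPKM that the authors computed from single-end reads of poly-A RNA, per the labels' protocols, printed to 1 decimal; per the file headers the table lists genes of at least 3 RPKM in some library. The miRNA values are raw read counts on miRBase entries, per the file headers. The submitters' processing notes name CASAVA 1.6, Bowtie, Partek 6.5 and mm9; how reads were mapped is not given in the sources used here. From 9251 lines of mRNA, 261 empty ones, 1 with an error mark and 2 repeats were dropped, and 0 columns matched no sample. WT sham 15 has number 13 in its source name; its title was used.

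Differences in log2(RPKM + 0.5) were tested with limma 3.58.1 (lmFit, eBayes with trend, R 4.3.3), with all 4 groups in the model; requiring a mean of 1 RPKM removed 0 genes. For miRNA counts edgeR 4.0.16 was used (quasi-likelihood, TMM, filterByExpr), with DESeq2 1.42.0 as an alternative. Tests were two-sided, with Benjamini-Hochberg adjustment over all features at 0.05. Approximate 95% intervals are normal, from each SE. Both analyses were run on simulated data in which values were drawn independently, without the library sets. Effects of the sets on the calls were not covered by it. The 10 genes, the lists and the library sets were chosen with earlier results of these data known. Genes were named by a rule: the 10, up to 4 of each list with the smallest p in WT TAC against WT sham, the 10 most alike over the 11 libraries, and Pik3ca. Lyz1, the genes listed through WT TAC alone and the GGAA search were added after values were seen. Promoter and miRNA sequences are RefSeq's, and motif shares are over its promoter table.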

Additional observations from a re-analysis of the deposited data

Results flagged for a closer look

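Tyrobp read 1.6 RPKM in WT sham 15, the lowest of 4 sham hearts of which the other 3 all read 4.7 RPKM. miR-142-3p read 45.6 CPM in WT sham 13, the highest of its 4 sham hearts and within the WT TAC range. In 25 groups of 4 or more hearts, 2 had a heart that stood apart in this way, and chance alone gives about 1 in 20. The response to load differed between genotypes for Fcgr2b by a test of the difference itself, at -1.52 (caPI3Kalpha minus WT, limma adjusted p = 0.0156). By that test 0.312% of all genes were called lower. The call was lost without WT TAC 17 (limma adjusted p = 0.0642) and in the other fits given above.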

How the results depend on the processing

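In WT TAC against WT sham, all 10 genes were called higher under every alternative but 1: other pseudocounts, quantile normalization, median centring, no filter, the compared groups alone, robust variances, a set term, the second library set alone and each heart left out. Within the first library set 0 were called. Under the other alternatives 8.11% (without WT TAC 17) to 42.1% (set term) of all genes were called in either direction. The scalings moved the all-gene median from 0.17 to -0.03 (quantile) and -0.02 (centring). In both comparisons with caPI3Kalpha sham, 0 members were called under every alternative. For caPI3Kalpha TAC against WT TAC, where 8 were called, the count was 0 within the first set, 2 to 9 with 1 heart left out and 7 to 9 otherwise. For the interaction, where 1 was called, it was 2 with a pseudocount of 1, 9 with a set term, 0 within the first set and 0 to 2 with 1 heart left out. Where 7 to 9 members were called in caPI3Kalpha TAC against WT TAC with no heart left out, 0.879% to 9% of all genes were called. For the interaction 0.312% of all genes were called in the main fit and 6.75% with a set term. The library sets were drawn from these same values, so adjusted p-values with a set term may be too small. The fits that leave 1 heart in an arm assume that it varies like the other groups, and fewer samples enter them. Otherwise the cause was not tested. No called value changed sign; uncalled values did, such as miR-155 in WT TAC against WT sham (-0.28, and 0.03 without TMM) and Cd68 in caPI3Kalpha TAC against sham (-0.78 to 0.32 with 1 heart left out). Without a filter on low counts, miR-142-3p lost both calls (adjusted p 0.0741 and 0.0837). With a term for a space in the column name, added after the files were seen, it kept both (0.0159 and 0.0187), while miR-142-5p (0.65, adjusted p = 0.00408) and miR-155 (-0.32, adjusted p = 0.021) were called in WT TAC against WT sham, and miR-142-5p in caPI3Kalpha TAC against sham (0.96, adjusted p = 0.00154). No paired analysis was possible because the mRNA groups share no animal number and the small RNA groups share only number 8. The mRNA depth is unknown, and 2 hearts in each caPI3Kalpha group limit every comparison with them.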
